A study of Mus musculus with 10 samples.

Results

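The expression of 10 genes of the ovulatory response was followed through 10 mouse ovary RNA libraries. The genes were taken by their symbols from the deposited tables, where they are 10 of 24306 genes. They are Ptgs2, Ptges, Hpgd, Ptger2 and Ptger4 of the prostaglandin pathway, Pgr, Edn2 and Ednra of the endothelin axis, Il6, and Rgs2. Ovaries of 3 genotypes were sampled at 6 weeks of age on a mixed C57BL/6;129 background. Rar mutants (n = 3) were Sf1-Cre+ and Dmrt1 +/+, and were f/f for each of Rara, Rarb and Rarg, which encode retinoic acid receptors. Dmrt1 het Rar mutants (n = 2) were Sf1-Cre+ with the same receptor alleles, and were fl/+ for Dmrt1, a gonadal transcription factor gene. Controls (n = 5) had the same f/f receptor alleles, were Dmrt1 +/+ and were Sf1-Cre-. The 3 groups therefore all carried floxed receptor alleles, and Sf1-Cre is a transgene that places Cre recombinase under regulatory sequence of Nr5a1, a gene of steroidogenic gonadal and adrenal cells. PolyA RNA of whole gonads was sequenced, so each value averages all cell types of an ovary, and the cycle stage of the animals is not given in the sources used here. Nothing in the labels states that replicates were separate animals, so each p-value measures the spread between these libraries, which may be partly technical.

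In the mammalian ovary the luteinizing hormone surge acts on granulosa cells of the largest follicles, and within hours these cells switch on genes that release the oocyte. Cyclooxygenase-2 and prostaglandin E synthase make prostaglandin E2, which acts through the receptors EP2 and EP4, while 15-hydroxyprostaglandin dehydrogenase inactivates it. In mice, the progesterone receptor is needed for follicle rupture, and endothelin-2, made briefly near rupture, contracts smooth muscle around the follicle.

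The sequences just upstream of 5 of these genes are shown because their levels, described further on, departed most from the controls in single mutant libraries. Each runs 5′ to 3′ on the gene's strand from 190 bases before the annotated start to 30 bases after it (RefSeq, GRCm38.p6), and capitals mark matches to 10 short motifs searched on both strands.
Ptgs2: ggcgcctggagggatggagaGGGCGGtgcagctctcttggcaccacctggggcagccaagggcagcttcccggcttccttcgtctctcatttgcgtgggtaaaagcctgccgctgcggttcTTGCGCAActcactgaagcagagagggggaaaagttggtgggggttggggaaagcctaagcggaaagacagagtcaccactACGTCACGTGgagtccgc
Il6: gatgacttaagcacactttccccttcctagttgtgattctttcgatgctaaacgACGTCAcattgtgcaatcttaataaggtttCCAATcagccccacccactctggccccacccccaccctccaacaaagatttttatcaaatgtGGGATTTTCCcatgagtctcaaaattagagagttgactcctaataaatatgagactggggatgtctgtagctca
Rgs2: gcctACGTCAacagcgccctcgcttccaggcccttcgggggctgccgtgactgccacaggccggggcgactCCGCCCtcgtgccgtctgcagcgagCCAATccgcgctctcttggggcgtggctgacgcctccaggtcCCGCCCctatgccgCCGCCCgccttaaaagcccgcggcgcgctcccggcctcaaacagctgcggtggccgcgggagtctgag
Pgr: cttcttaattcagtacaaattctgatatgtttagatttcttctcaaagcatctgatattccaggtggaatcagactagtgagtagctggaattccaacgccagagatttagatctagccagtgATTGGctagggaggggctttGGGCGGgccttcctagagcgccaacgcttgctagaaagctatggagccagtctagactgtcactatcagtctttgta
Edn2: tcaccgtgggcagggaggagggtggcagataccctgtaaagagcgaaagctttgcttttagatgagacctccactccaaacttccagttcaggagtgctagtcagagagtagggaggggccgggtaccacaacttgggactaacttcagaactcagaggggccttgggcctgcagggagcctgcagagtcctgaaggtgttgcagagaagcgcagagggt

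These stretches lie at chr1:150099841-150100060 for Ptgs2, chr5:30012924-30013143 for Il6, chr1:144004120-144004339 for Rgs2, chr9:8899643-8899862 for Pgr and chr4:120161016-120161235 for Edn2. Rgs2 is read on the minus strand and the other 4 on the plus strand. Motifs were counted over windows of 300 bases, which reach further upstream than the printed letters. The letters ACGTCA, the core of the cAMP response element, were found in 3 of the 10 genes, and 7.51% of 32851 RefSeq promoters hold them. The match begins 13 bases after the start in Ptgs2, 136 bases before it in Il6 and 186 bases before it in Rgs2. In Ptgs2 it overlaps CACGTG, an E-box found in 7.15% of promoters, and the palindrome TTGCGCAA, a site of the C/EBP family found in 0.183%, lies 69 bases before the start. Il6 also holds GGGATTTTCC, an NF-kB site that was searched with any base at the fifth position and found in 0.411% of promoters, and TGANTCA, an AP-1 site found in 7.81% that lies outside the printed stretch. CCAAT was found in 5 of the 10 genes and 37.4% of promoters, GGGCGG in 6 of 10 and 35.7%, and TATAAA in 2 of 10 and 13.6%. AGAACA, the core letters of a progesterone receptor site, was found in Ptges and Ptger2 and in 19% of promoters, and AGGTCA, a nuclear receptor site, in none of the 10 and in 16.3%. Edn2 and Ednra held none of the 10 motifs. A match describes letters in a window and was not tested as a bound site.

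Libraries held 21064856 to 25920131 counts. CPM here means the count scaled to a library of 1000000 counts after trimmed mean of M values (TMM) scaling of the library totals, and 1 count corresponds to 0.0393 to 0.0458 CPM. Of the floxed receptor genes, Rarg was at 14.9 to 19.3 CPM in Rar mutants and 20.4 to 22 CPM in Dmrt1 het Rar mutants, against 24.3 to 32.7 CPM in controls (Rar mutants over controls: log2 fold change -0.78 ± 0.15, SE, edgeR adjusted p = 0.104). Rara ranged from 20.4 to 30.8 CPM in Rar mutants, 28.7 to 30 CPM in Dmrt1 het Rar mutants and 20.1 to 37.1 CPM in controls, and Rarb was below 5 CPM throughout. Whole-gene counts include exons that a floxed allele may keep, and Dmrt1 was at or near 0 in all 10 libraries, so neither checks the labels fully. Summed granulosa cell markers were 4049 to 5654 CPM in Rar mutants, 7304 to 7371 CPM in Dmrt1 het Rar mutants and 4812 to 9308 CPM in controls. Oocyte markers summed to 216 to 684 CPM in Rar mutants, 417 to 507 CPM in Dmrt1 het Rar mutants and 488 to 747 CPM in controls, so ovarian markers were present in every library. Of the title numbers, those below 7800 belong to both Dmrt1 het Rar mutants, Rar mutant 1 and control 1, and what this number records is not given in the sources used here.

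Compared per length in the controls, the 10 genes spanned a wide range of levels. Rgs2 was highest at 116 ± 17 FPKM (SD, n = 5), the deposited value scaled for transcript length and for library size. Hpgd at 40.2 ± 5.4 and Ptges at 28.8 ± 5 FPKM came next, and their ranges overlapped although Hpgd was the higher of the pair in all 5 controls. Ednra at 8.18 ± 1.92 and Ptger2 at 2.56 ± 0.293 FPKM followed, each with a range clear of its neighbours. Edn2 at 0.864 ± 0.699 and Ptger4 at 0.549 ± 0.146 FPKM overlapped. Pgr at 0.174 ± 0.0633, Il6 at 0.102 ± 0.0549 and Ptgs2 at 0.0886 ± 0.0524 FPKM were lowest, and in that order each overlapped the next. Gene positions given from here on are those of the GRCm38 annotation. Ptgs2 rested on 3 to 18 counts and Il6 on 3 to 12 counts per control library, so their control levels carry large counting error.

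In Rar mutant ovaries the genes of the set departed from the controls in different libraries. Ptgs2, Pgr, Il6, Rgs2 and Ptger4 were highest of all 10 libraries in Rar mutant 3, Edn2 was highest in Rar mutant 2, and Rar mutant 1 was the highest library for none of the 10 genes. Ptges, Hpgd, Ptger2 and Ednra varied less over the 10 libraries than those 6 genes. Between Rar mutants and controls, 0 of the 10 genes were called, that is passed the edgeR quasi-likelihood test at an adjusted p of 0.05, where 2 of 20570 genes tested did (0.00972%). At an unadjusted p of 0.05, 5 of the 10 were higher and 1 was lower, against 5.61% and 3.84% of all genes. The median log2 fold change of the 10 was 0.97, against -0.02 over all genes, and for 0 of the 10 did the groups lie apart, which 2.41% of genes did upwards and 2.74% downwards. With DESeq2, 1 of the 10 passed, Il6, where 1.16% of genes tested were called higher. Ptgs2, Pgr and Edn2 received no p-value because that tool sets aside genes with an extreme library. With that filter off, DESeq2 called Ptgs2, Pgr and Il6 higher, where 1.32% of genes were. Without Rar mutant 1, edgeR called the same 3 genes higher, where 1.48% of genes were.

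**Figure D1:**
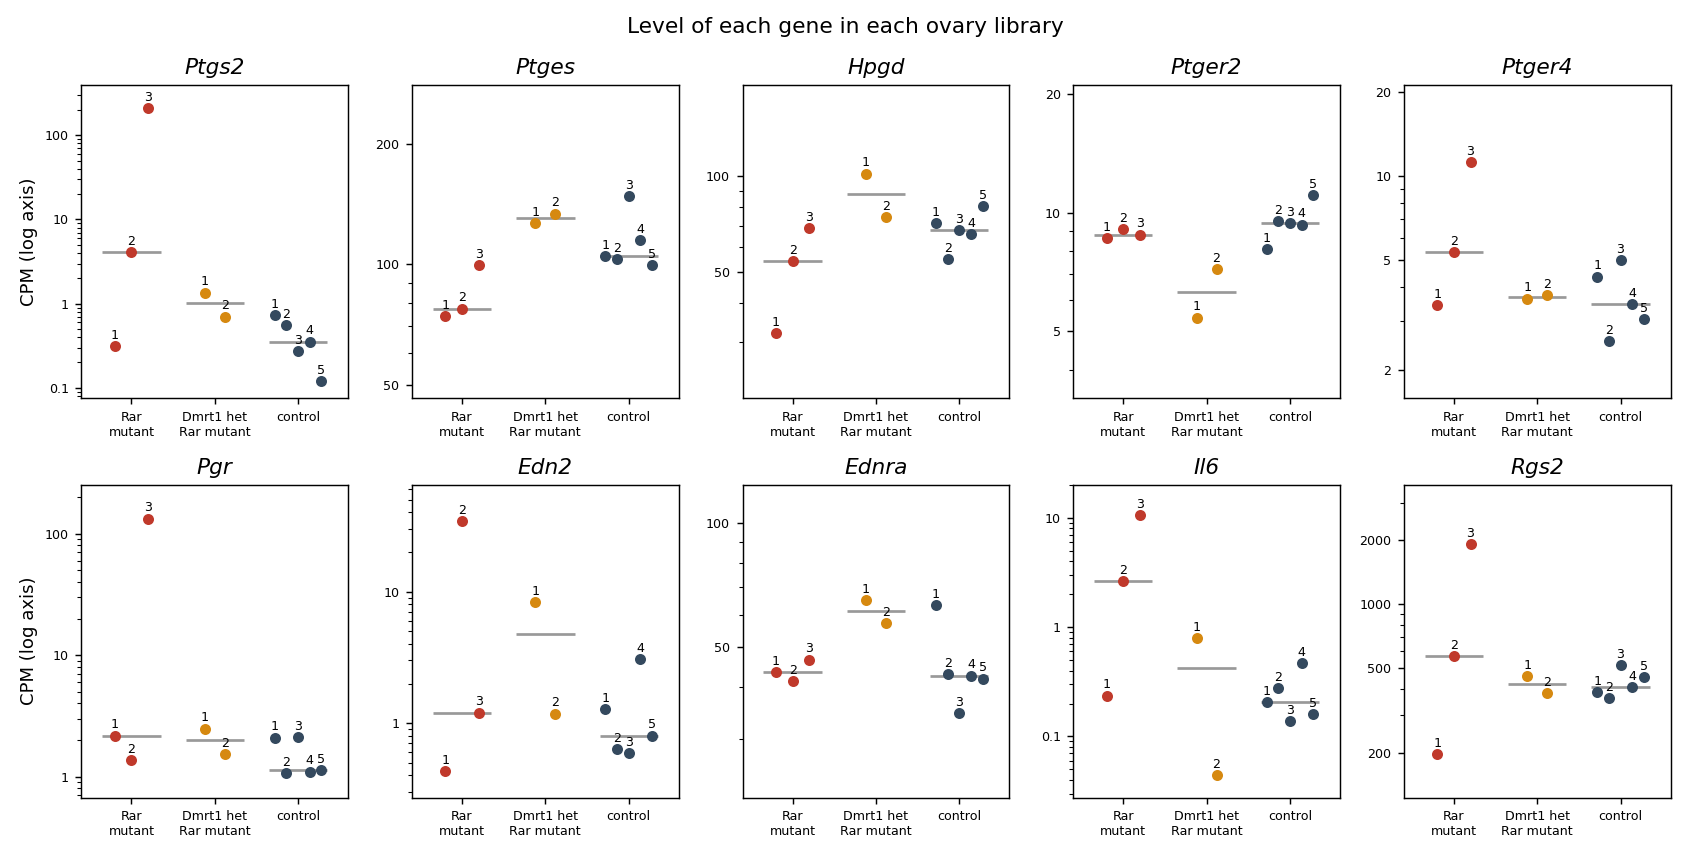
CPM of each of the 10 genes (log axis) in every library, with Rar mutants at the left, Dmrt1 het Rar mutants in the middle and controls at the right. Points carry the library's replicate number and grey lines are group medians. Rar mutant 3 stands highest for Ptgs2 (209 CPM), Pgr (133 CPM), Il6 (10.6 CPM) and Rgs2 (1928 CPM), and Rar mutant 2 for Edn2 (34.2 CPM).

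Ptgs2 (ENSMUSG00000032487, chr1:150100031-150108227, plus strand) encodes cyclooxygenase-2, the inducible enzyme that commits arachidonic acid to prostaglandins. Its level was 0.315, 4.07 and 209 CPM in Rar mutants 1, 2 and 3, against 0.737, 0.557, 0.275, 0.354 and 0.121 CPM in controls 1 to 5. Rar mutant 1 lay within the control range, Rar mutant 2 above every control, and Rar mutant 3 was 51.4 times the next library. These levels come from 8, 98 and 4875 counts in the Rar mutants and 3 to 18 counts in the controls. The log2 fold change of Rar mutants over controls was 7.42 ± 1.51 (approximate SE, edgeR adjusted p = 0.105), and 2 of 3 Rar mutants were above the control mean. Without Rar mutant 3 it was 2.38 ± 0.78 (edgeR adjusted p = 0.513), and without Rar mutant 1 the gene was called (edgeR adjusted p = 0.00761). In bulk ovary RNA, fewer or more cells of a type and less or more RNA per cell cannot be told apart.

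Ptges (ENSMUSG00000050737, chr2:30889471-30929863, minus strand), which encodes the inducible microsomal prostaglandin E synthase, was not high where Ptgs2 was. Its level was at 74.1, 77.5 and 99.7 CPM in Rar mutants 1, 2 and 3, against 105, 103, 148, 115 and 99.4 CPM in the controls. Rar mutants 1 and 2 were below every control and Rar mutant 3 was within their range. Rar mutants over controls gave a log2 fold change of -0.45 ± 0.17 (edgeR adjusted p = 0.4), with all 3 Rar mutants below the control mean. Hpgd (ENSMUSG00000031613, chr8:56294585-56321043, plus strand), encoding the dehydrogenase that inactivates prostaglandin E2, was at 32.1, 54.1 and 68.6 CPM in Rar mutants against 54.8 to 80.6 CPM in controls (-0.40 ± 0.23, edgeR adjusted p = 0.656). Here too Rar mutants 1 and 2 lay under the controls, with Rar mutant 2 only just so. Ptges and Hpgd each overlap an annotated transcript on their own strand, and that of Hpgd, Gm45540, held 4 to 153 counts per library. Over all libraries the profiles of Ptges and Hpgd were the closest pair among the 10 genes, with a root mean square difference of 0.30 on the log2 scale.

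The prostaglandin E2 receptors differed from each other. Ptger2 (ENSMUSG00000037759, chr14:44988195-45003820, plus strand), encoding EP2, which raises cAMP and is required for cumulus expansion in mice, was at 8.62, 9.09 and 8.8 CPM in Rar mutants, against 8.07, 9.54, 9.39, 9.33 and 11.1 CPM in controls. The groups overlapped, and the log2 fold change was -0.10 ± 0.17 (edgeR adjusted p = 0.914). Ptger4 (ENSMUSG00000039942, chr15:5206661-5244187, minus strand), encoding EP4, another cAMP-raising receptor, was at 3.43, 5.31 and 11.2 CPM in Rar mutants, against 4.34, 2.54, 4.99, 3.46 and 3.06 CPM in controls. Rar mutants 2 and 3 exceeded every control, Rar mutant 2 narrowly. The log2 fold change of Ptger4 was 0.86 ± 0.35 (edgeR adjusted p = 0.475), and without Rar mutant 3 it was 0.24 ± 0.29. Ptger4 overlaps Ttc33 on the opposite strand, which held 418 to 553 counts per library, and whether the authors counted by strand is not given in the sources used here.

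Pgr (ENSMUSG00000031870, chr9:8899833-8968611, plus strand) encodes the progesterone receptor, a nuclear receptor that granulosa cells of ovulating follicles make after the hormone surge. It was at 2.17, 1.37 and 133 CPM in Rar mutants 1, 2 and 3, against 2.09, 1.07, 2.11, 1.1 and 1.13 CPM in the controls. Rar mutant 2 lay inside the control range, Rar mutant 1 exceeded the highest control by a narrow margin, and Rar mutant 3 was 53.7 times the next library, Dmrt1 het Rar mutant 1. Counts were 55, 33 and 3102 in the Rar mutants and 27 to 51 in the controls. The log2 fold change was 4.93 ± 1.17 (edgeR adjusted p = 0.155), and 2 of 3 Rar mutants were above the control mean. It was 0.24 ± 0.40 (edgeR adjusted p = 0.953) without Rar mutant 3 and 5.49 ± 1.03 (edgeR adjusted p = 0.0306) without Rar mutant 1. Ptgs2 and Pgr thus shared their peak library, whereas Rar mutant 2 was above all controls for Ptgs2 and within them for Pgr.

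Edn2 (ENSMUSG00000028635, chr4:120161206-120167360, plus strand), the gene of endothelin-2, peaked in a different library. It was at 0.433, 34.2 and 1.2 CPM in Rar mutants 1, 2 and 3, against 1.27, 0.636, 0.595, 3.07 and 0.804 CPM in the controls. Rar mutant 2 was 4.12 times the next library, Rar mutant 1 was below every control, and Rar mutant 3 was within the control range. Its log2 fold change was 3.22 ± 1.15 (edgeR adjusted p = 0.369), with 1 of 3 Rar mutants above the control mean, and it turned to -0.65 ± 0.89 without Rar mutant 2. Ednra (ENSMUSG00000031616, chr8:77663031-77724464, minus strand), encoding the endothelin A receptor that mediates contraction of smooth muscle, was at 43.5, 41.4 and 46.7 CPM in Rar mutants, against 63.2, 43, 34.6, 42.7 and 42 CPM in controls. The Rar mutants all lay inside the control range, and the log2 fold change was -0.04 ± 0.18 (edgeR adjusted p = 0.967). Ednra overlaps the transcript 4933431K23Rik on the opposite strand, which held 38 to 239 counts per library.

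Il6 (ENSMUSG00000025746, chr5:30013114-30019981, plus strand) encodes interleukin 6, a cytokine that cumulus and granulosa cells secrete around ovulation in mice. Its level was 0.236, 2.62 and 10.6 CPM in Rar mutants 1, 2 and 3, against 0.205, 0.278, 0.137, 0.472 and 0.161 CPM in the controls. The 6 counts of Rar mutant 1 lay among the controls, whereas the 63 and 247 counts of Rar mutants 2 and 3 were above all of them. The log2 fold change was 4.12 ± 0.96 (edgeR adjusted p = 0.148), and 2 of 3 Rar mutants exceeded the control mean. With DESeq2 it was 4.18 ± 0.92 (adjusted p = 0.0012). Within the libraries with title numbers of 7800 or more, which leaves out Rar mutant 1 and control 1, it was 4.61 ± 0.63 (edgeR adjusted p = 0.0293), and 0.602% of genes were called higher there. Without Rar mutant 3 it was 2.45 ± 0.89 (edgeR adjusted p = 0.578). In the authors' deposited table of 185 genes, Il6 is the only one of the 10. It has a mean count of 44.7, a log2 fold change of 1.48, an SE of 0.30 and an adjusted p of 0.000507. The authors' fold changes span -2.16 to 3.33 over the 185 genes and come from an earlier DESeq2 version. Whether that version drew large fold changes towards no change was not tested. The size of the 1.48 was therefore not compared with 4.12 and 4.18. The mean counts in the authors' deposited table match the mean over the 3 Rar mutants and 5 controls to within 0.0348%, which leaves out the Dmrt1 het Rar mutants.

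Rgs2 (ENSMUSG00000026360, chr1:143999338-144004161, minus strand) encodes a regulator of G protein signalling that speeds the shut-off of Gq. It was at 196, 568 and 1928 CPM in Rar mutants 1, 2 and 3, against 386, 360, 518, 407 and 454 CPM in the controls. The 3 Rar mutants spread to both sides of the controls, with Rar mutant 1 below all of them, Rar mutant 2 slightly above and Rar mutant 3 at 3.4 times the next library. Its log2 fold change was 1.08 ± 0.51 (edgeR adjusted p = 0.553), and it turned to -0.17 ± 0.33 without Rar mutant 3.

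**Figure D2:**
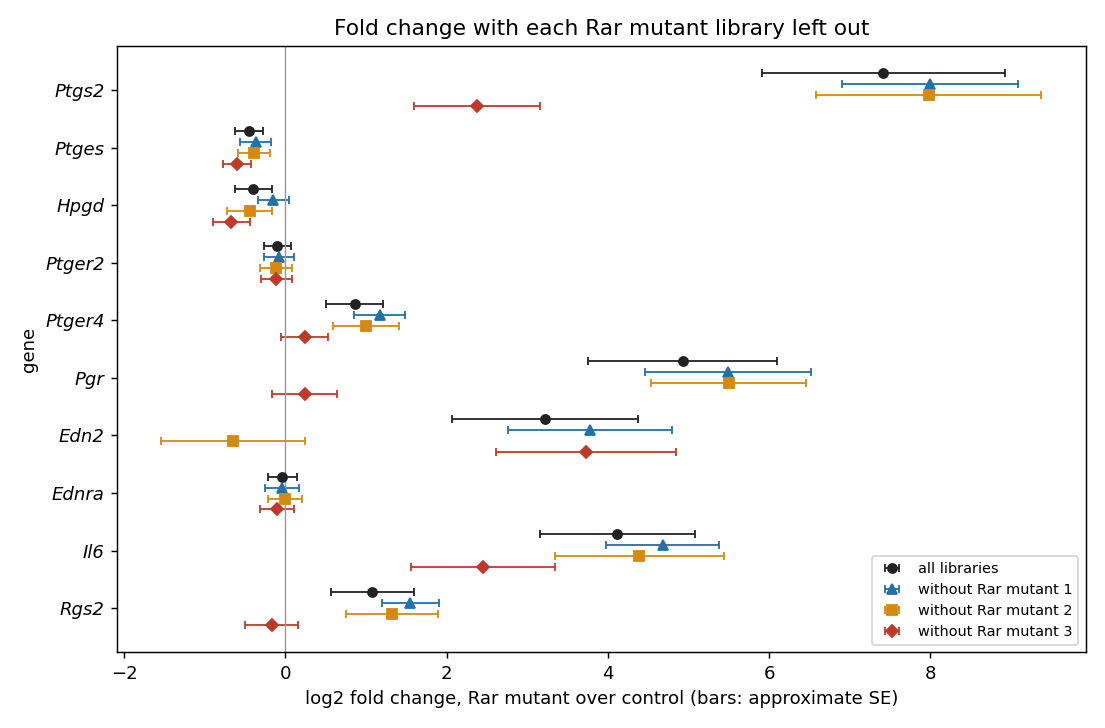
Log2 fold change of Rar mutants over controls for each of the 10 genes, with all libraries (black) and with each Rar mutant library left out in turn, and bars for the approximate SE. Leaving out Rar mutant 3 takes Ptgs2 to 2.38 and Pgr to 0.24, and leaving out Rar mutant 2 takes Edn2 to -0.65.

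Counting by library gives the same picture without a mean. In Rar mutant 3, 5 of the 10 genes were above every control (Ptgs2, Ptger4, Pgr, Il6 and Rgs2), against 20.8% of all genes, and 0 were below, against 24.8%. In Rar mutant 2, 5 were above (Ptgs2, Ptger4, Edn2, Il6 and Rgs2), against 18% of all genes, and Ptges and Hpgd were below, against 16.6%. In Rar mutant 1, Pgr was above, against 17.8%, and Ptges, Hpgd, Edn2 and Rgs2 were below, against 20.2%. The ratio of the highest to the lowest library was 1735 for Ptgs2, 242 for Il6, 124 for Pgr, 78.9 for Edn2 and 9.85 for Rgs2. Among the 5 controls alone these ratios were 6.11, 3.44, 1.96, 5.15 and 1.44. For Ptger4 the ratio was 4.42, and for Ptges, Hpgd, Ptger2 and Ednra it ran from 1.88 to 3.19.

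**Figure D3:**
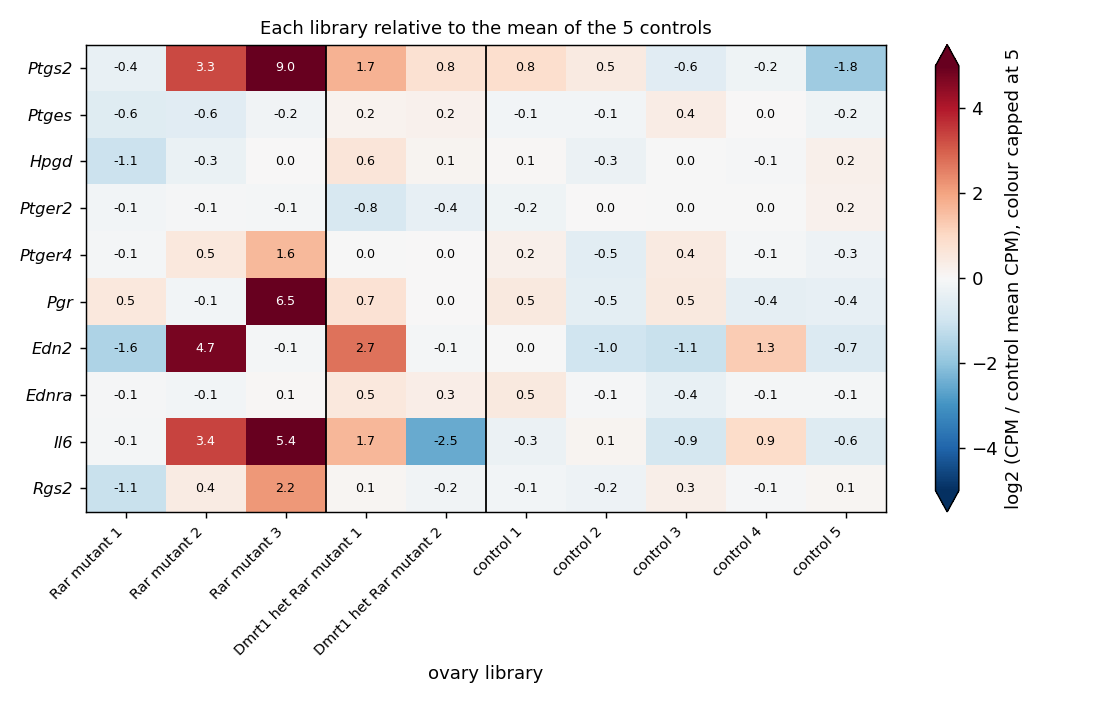
Log2 ratio of each library's CPM to the mean of the 5 controls, with the 10 genes down the page and libraries across it. Rar mutant 3 is deepest red for Ptgs2, Pgr and Il6, Rar mutant 2 for Edn2, and the controls stay pale except for single low-count values.

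Some marker values moved with these libraries and others did not. Star, which carries cholesterol into mitochondria and is one of the 8 theca cell markers, was at 624, 1039 and 6444 CPM in Rar mutants 1, 2 and 3, 139 and 728 CPM in Dmrt1 het Rar mutants, and 81.7 to 769 CPM in controls. All 8 theca cell markers summed to 930 to 7069 CPM in Rar mutants, 733 to 1222 CPM in Dmrt1 het Rar mutants and 831 to 1128 CPM in controls. Without Star the remaining theca sum was 306, 233 and 625 CPM in Rar mutants 1, 2 and 3, and 238 to 902 CPM in controls. The 6 adrenal cortex markers summed to 151, 585 and 806 CPM in Rar mutants, 28.6 to 40.7 CPM in Dmrt1 het Rar mutants and 29.3 to 111 CPM in controls. Within that list Akr1b7, an aldo-keto reductase, was at 0.394, 248 and 261 CPM in Rar mutants and 0.275 to 0.748 CPM in controls. Mrap was at 148, 286 and 532 CPM in Rar mutants and 28.5 to 109 CPM in controls. Cyp11b1 was at 2.4, 50 and 12.5 CPM in Rar mutants and 0 to 0.596 CPM in controls. Cyp11b2 and Mc2r were at 1.04 CPM or less in every library, and Cyp21a1, the adrenal 21-hydroxylase, was at or near 0. The 8 luteal cell markers summed to 13438, 5940 and 7664 CPM in Rar mutants, 7189 to 7791 CPM in Dmrt1 het Rar mutants and 6702 to 12899 CPM in controls. The 5 neutrophil markers found, of 8 listed, summed to 3.23, 8.22 and 3.73 CPM in Rar mutants, 7.24 to 7.74 CPM in Dmrt1 het Rar mutants and 2.97 to 6.51 CPM in controls. Macrophage markers summed to 130 to 185 CPM in Rar mutants, 128 to 146 CPM in Dmrt1 het Rar mutants and 110 to 212 CPM in controls. Oviduct and uterus markers summed to 43.3, 44.3 and 65.1 CPM in Rar mutants 1, 2 and 3, and 32.1 to 52 CPM in controls. Within that list Ovgp1 was at 4.37, 1.87 and 31.3 CPM in Rar mutants and 1.39 to 2.36 CPM in controls. The other genes found of that list lay within the control range in Rar mutant 3. No marker of the 11 lists was at 0 in all libraries, and the part of any of these cell types in the levels above was not tested.

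Genes reported downstream of the progesterone receptor in mouse ovary, from a list of 17, were examined next to Pgr itself. Of the 16 that were tested, 0 were called in Rar mutants against controls, 9 were higher and 0 lower at an unadjusted p of 0.05, against 5.61% and 3.84% of all genes, and their median log2 fold change was 1.33, against -0.02 over all genes. By library, 4, 13 and 14 of the 16 were above every control in Rar mutants 1, 2 and 3, against 17.8%, 18% and 20.8% of all genes, and the Pgr level of Rar mutant 2 was 1.37 CPM. Adcyap1, the gene of the neuropeptide PACAP, was at 8.23, 67.7 and 424 CPM in Rar mutants against 0 to 2.03 CPM in controls (7.28 ± 1.11, edgeR adjusted p = 0.0557), and all 3 Rar mutants were above all controls. Adamts1, a protease that cleaves versican in the cumulus matrix, was at 37.8, 620 and 169 CPM in Rar mutants and 20.8 to 53.1 CPM in controls, so its peak was in Rar mutant 2, as for Edn2. Ereg, encoding the EGF-like ligand epiregulin, was at 1.73, 10.5 and 557 CPM in Rar mutants and 0.683 to 2.82 CPM in controls, with its peak in Rar mutant 3, as for Ptgs2. Prkg2, a cGMP-dependent kinase, was at 2.4, 49.1 and 76.8 CPM in Rar mutants against 1.56 to 4.02 CPM in controls. Arhgap18 had the lowest fold change among the genes of the list with a mean of at least 1 CPM (-0.24 ± 0.17, edgeR adjusted p = 0.745). It was at 97, 61.7 and 72.8 CPM in Rar mutants against 81.1 to 115 CPM in controls. Rar mutants 2 and 3 were thus below every control for this gene.

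**Figure D4:**
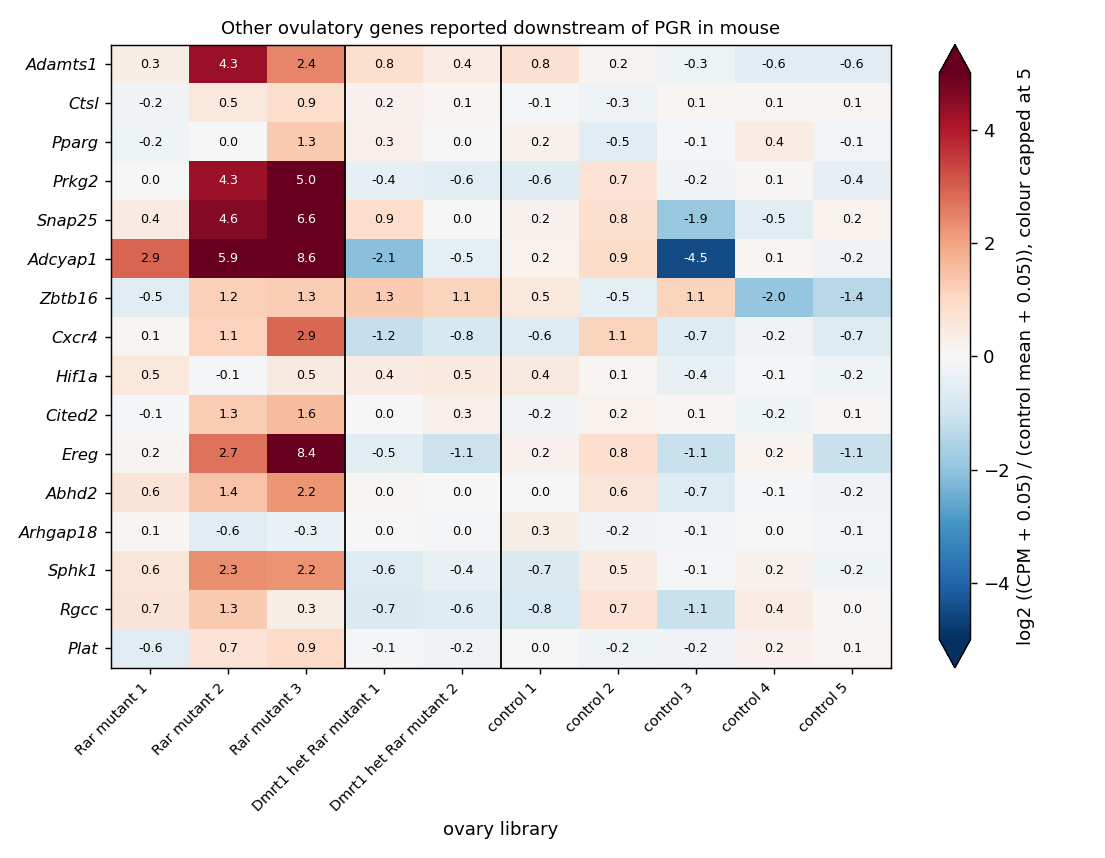
Log2 ratio of each library to the mean of the 5 controls, with 0.05 CPM added to both, for the 16 tested genes reported downstream of the progesterone receptor in mouse. Rar mutants 2 and 3 are red for most genes, while Rar mutant 1, both Dmrt1 het Rar mutants and the controls are mostly pale.

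Of 22 further prostaglandin genes tested, 0 were called between Rar mutants and controls, and 2 were higher and 1 lower at an unadjusted p of 0.05, near the 5.61% and 3.84% of all genes. Their median log2 fold change was 0.06. Ptgs1, which encodes the constitutive cyclooxygenase-1, was at 4.41, 80 and 6.48 CPM in Rar mutants, against 3.01 to 5.25 CPM in controls, and had the highest fold change among the genes of the list with a mean of at least 1 CPM (2.74 ± 0.74, edgeR adjusted p = 0.201). Its peak was in Rar mutant 2, where Ptgs2 was at only 4.07 CPM, and not in Rar mutant 3, where Ptgs2 was at 209 CPM. Slco2a1, the prostaglandin transporter, was at 33.3, 108 and 52.3 CPM in Rar mutants and 31.8 to 61 CPM in controls. Tbxa2r, the thromboxane receptor, had the lowest fold change among them (-0.74 ± 0.31, edgeR adjusted p = 0.469).

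The other pathway lists gave 0 called genes in Rar mutants against controls too. In the endothelin axis, 14 further genes were tested, 1 was higher at an unadjusted p of 0.05, near the 5.61% of all genes, and their median was 0.05. Edn1, the gene of endothelin-1, was at 0.945, 2.82 and 7.3 CPM in Rar mutants and 1.55 to 4.63 CPM in controls, and so did not peak with Edn2. Of 16 further interleukin 6 family and signalling genes, 5 were higher at an unadjusted p of 0.05, against 5.61% of all genes, with a median of 0.36. Il11, a cytokine that signals through the same gp130 chain, was at 0.157, 2.62 and 13 CPM in Rar mutants against 0.0819 to 0.354 CPM in controls (4.65 ± 0.96, edgeR adjusted p = 0.105), in the order seen for Il6. Osmr, the oncostatin M receptor, was at 15.5, 34.7 and 55.6 CPM in Rar mutants and 7.16 to 15.2 CPM in controls, above all controls in each Rar mutant.

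Upstream of these genes, 23 genes from the luteinizing hormone receptor to its transcription factors were tested, and 5 were higher at an unadjusted p of 0.05, against 5.61% of all genes, with a median of 0.24. Lhcgr, the receptor itself, was at 396, 82.4 and 170 CPM in Rar mutants against 171 to 713 CPM in controls (-0.79 ± 0.54, edgeR adjusted p = 0.723). Rar mutant 2 was below every control, and Rar mutant 3 only just so. Crem, a cAMP-responsive transcription factor, was at 20.5, 22.8 and 175 CPM in Rar mutants and 13.2 to 20.9 CPM in controls (2.22 ± 0.58, edgeR adjusted p = 0.192). Runx1, a transcription factor of ovulating granulosa cells, was at 33.9, 135 and 249 CPM in Rar mutants and 21.6 to 59.1 CPM in controls. Among 17 other RGS family genes, 0 were higher and 3 lower at an unadjusted p of 0.05, against 5.61% and 3.84% of all genes, with a median of -0.16. Of 16 other steroid receptors and progesterone receptor partners, 1 was lower at that level, against 3.84% of all genes, and the median was -0.04.

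The genes whose profile over the 10 libraries was nearest to Ptgs2, Pgr, Edn2, Il6 and Rgs2 were ranked by the root mean square difference of log2 CPM relative to the control mean. For Ptgs2 these were Nts at 0.92, Ereg at 0.97, Tnfaip6 at 1.00, then Btc and Snap25. Nts, the neurotensin gene, was at 0.551, 11 and 481 CPM in Rar mutants and 0.229 to 0.716 CPM in controls. For Pgr they were Gpr83 at 0.49, Tac1 at 0.64, Arc at 0.70, Btc at 0.77 and Egr2 at 0.89, so Btc, which encodes betacellulin, was near both. For Rgs2 the nearest were Cebpd at 0.26 and Btg1 at 0.29, for Il6 Dok5 at 0.83, and for Edn2 Ptgs1 at 1.17. All of these profiles share the same libraries and rest largely on Rar mutants 2 and 3, or on only 1 of them. Gpr83 was at 0.166 CPM in Rar mutant 2 and 13.1 CPM in Rar mutant 3, against 0.0398 to 0.409 CPM in controls. Ptgs1 was at 80 CPM in Rar mutant 2 and 6.48 CPM in Rar mutant 3, against 3.01 to 5.25 CPM in controls.

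In Dmrt1 het Rar mutants the large values of Rar mutants 2 and 3 were not seen, and Rar mutant 1 lacked them too. Of the 10 genes, 0 were called against controls, where 4 of 20570 genes were (0.0194%), and 1, Ptger2, was lower at an unadjusted p of 0.05, as were 9.26% of all genes. DESeq2 called 0 of the 7 to which it gave a p-value, where it called 0.675% of genes higher and 1.1% lower. The same 5 controls serve this comparison and that of the Rar mutants. The median log2 fold change was 0.40, against -0.02 over all genes. Ptgs2 was at 1.35 and 0.702 CPM in Dmrt1 het Rar mutants 1 and 2, against 0.121 to 0.737 CPM in controls (1.31 ± 1.84, edgeR adjusted p = 0.717). Pgr was at 2.48 and 1.54 CPM against 1.07 to 2.11 CPM in controls (0.43 ± 1.37, edgeR adjusted p = 0.885). Dmrt1 het Rar mutant 1 was above every control for both, by small margins. Il6 was at 0.799 and 0.0439 CPM, that is 19 counts and 1 count, and the 2 libraries lay on opposite sides of the controls (0.74 ± 1.23, edgeR adjusted p = 0.766). With a term for the title number the log2 fold change of Ptgs2 was 4.82 ± 3.64 (edgeR adjusted p = 0.847). That of Pgr was then 1.35 ± 2.01 (edgeR adjusted p = 0.919) and that of Il6 3.34 ± 1.67 (edgeR adjusted p = 0.779). Of the controls, only control 1 has a title number below 7800, as both Dmrt1 het Rar mutants do.

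Edn2 was at 8.28 and 1.18 CPM in Dmrt1 het Rar mutants, against 0.595 to 3.07 CPM in controls, so Dmrt1 het Rar mutant 1 held the second highest level of all libraries (1.88 ± 1.26, edgeR adjusted p = 0.428). Without Dmrt1 het Rar mutant 1 the log2 fold change was -0.11. Ptger2 was at 5.42 and 7.19 CPM in Dmrt1 het Rar mutants, below the 8.07 to 11.1 CPM of the controls (-0.59 ± 0.20, edgeR adjusted p = 0.243). It was the 1 gene of the 10 whose groups did not overlap, lower in the Dmrt1 het Rar mutants, as were 14.3% of all genes. Ptges was at 127 and 134 CPM against 99.4 to 148 CPM in controls, Hpgd at 102 and 74.3 CPM against 54.8 to 80.6 CPM, and Ednra at 65.1 and 57.3 CPM against 34.6 to 63.2 CPM. Rgs2 was at 458 and 380 CPM and Ptger4 at 3.62 and 3.73 CPM, inside the control ranges of 360 to 518 CPM and 2.54 to 4.99 CPM. By library, 6 of the 10 genes were above every control in Dmrt1 het Rar mutant 1, against 23.1% of all genes, and 0 in Dmrt1 het Rar mutant 2, against 20.4%. Below every control were 1 gene in Dmrt1 het Rar mutant 1 (Ptger2), against 22.5% of all genes, and 2 in Dmrt1 het Rar mutant 2 (Ptger2 and Il6), against 21.8%.

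Set directly against the Rar mutants, the Dmrt1 het Rar mutants differed in 0 of the 10 genes at an adjusted p of 0.05, where 0 of 20570 genes did (0%). At an unadjusted p of 0.05, 2 of the 10 were higher and 4 lower, against 7.56% and 9.3% of all genes, and DESeq2 called 0 of the 7 to which it gave a p-value, where it called 1.55% of genes higher and 2.1% lower. Ptgs2 had a log2 fold change of -6.11 ± 2.09 (edgeR adjusted p = 0.233), Pgr of -4.50 ± 1.69 (edgeR adjusted p = 0.25) and Il6 of -3.38 ± 1.31 (edgeR adjusted p = 0.256), and for each of these Rar mutant 1 lay within or below the 2 Dmrt1 het Rar mutants. Ptges, Hpgd and Ednra were higher in both Dmrt1 het Rar mutants than in all 3 Rar mutants, at 0.64 ± 0.20, 0.78 ± 0.28 and 0.48 ± 0.22, and 19.8% of all genes were separated upwards in this way. Ptger2 was separated downwards at -0.49 ± 0.21, as were 19.5% of all genes. Both Dmrt1 het Rar mutants have title numbers below 7800, as does Rar mutant 1, while Rar mutants 2 and 3 do not, so within the lower numbers these 2 genotypes meet only through Rar mutant 1. With a term for the title number, Ptgs2 was -2.11 ± 3.61, Pgr -3.26 ± 2.31, Il6 -0.63 ± 1.70 and Rgs2 -0.15 ± 0.77, against -1.10 ± 0.68 for Rgs2 without it, and Edn2 was 0.37 ± 2.16 with it and -1.33 ± 1.46 without it. In that fit 0 of the 10 were called, as without the term. DESeq2 without its filter on extreme libraries called Ptgs2 lower, as it did 2.2% of genes. This comparison and the one above share the Dmrt1 het Rar mutant libraries.

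The series' design text describes 2 genotypes with 5 libraries each, which the labels meet when both Cre-positive groups are pooled. With the 5 Rar-deleted ovaries against the 5 controls, 9 of the 10 genes were tested, since Il6 did not pass the filter on low counts. Of these 0 were called, where 21 of 18954 genes were (0.111%), and 3 were higher at an unadjusted p of 0.05, against 4.24% of all genes. DESeq2 called 0 of the 8 to which it gave a p-value, where it called 0.261% of genes higher and 0.485% lower, and for Il6 it gave 3.53 ± 1.13 (adjusted p = 0.143). The mean of Ptgs2 was 43.1 ± 92.9 CPM over the 5 Rar-deleted libraries, against 0.409 ± 0.242 CPM over the 5 controls (SD), and its log2 fold change was 6.70 ± 1.85 (edgeR adjusted p = 0.379), with 4 of 5 above the control mean. For Pgr the Rar-deleted mean was 28.1 ± 58.7 CPM, against a control mean of 1.5 ± 0.547 CPM (4.23 ± 1.36, edgeR adjusted p = 0.491). The Rar-deleted mean of Edn2 was 9.05 ± 14.4 CPM, against 1.27 ± 1.04 CPM for the controls (2.82 ± 1.06, edgeR adjusted p = 0.551), with 2 of 5 above the control mean. With DESeq2 without its filter on extreme libraries, Ptgs2 was called higher, as were 0.32% of genes. For all 3 genes the SD of the Rar-deleted group exceeded its mean. The median log2 fold change of the 9 genes was 0.57, against 0.00 over all genes.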

How the data were processed

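The authors deposited a table of raw counts per gene and a table of FPKM for the 10 polyA libraries (KAPA stranded kit, per the labels' protocols) and a table of 185 genes with mean normalized counts as a signal, log2 fold changes, a test score and p-values for their own comparison. The submitters' processing notes name Trimmomatic 0.32, STAR 2.4.2a, SAMtools 1.0 and DESeq2 1.12.3. The deposited FPKM follow median-of-ratios size factors rather than library totals. Of the 24306 genes, 438 have no symbol. Counts were tested with edgeR 4.0.16 (TMM, filterByExpr, robust quasi-likelihood F test, R 4.3.3), with Benjamini-Hochberg adjustment over all genes tested and a threshold of 0.05. The 3 genotypes shared a fit, and the pooled Cre-positive group had its own. Each SE is approximate and was derived from the F statistic and the fold change. DESeq2 1.42.0 and the other settings are in the closing section. The fits were first tested on simulated data, with changes placed in genes above 1 CPM. Recovery of 2-fold changes was 31% in Rar mutants and 28% in Dmrt1 het Rar mutants, both against controls. It was 6% between those genotypes and 42% in the pooled comparison. For 4-fold changes it was 83%, 77%, 70% and 93% in that order, and 2.88% to 8.7% of calls were false. A gene that was not called may therefore still differ. Libraries of equal replicate number had correlations of -0.087 to 0.435. Pairs of unequal number were not compared, so whether these numbers pair libraries was not settled. No replicates were alike within sampling noise. The gene set and the lists were chosen with earlier results of these data known. All 10 genes were reported. The highest and lowest of each list having a mean of at least 1 CPM, and the 5 nearest profiles, were picked by rule. Only a part of these is named here. Other list genes that are named were chosen after their values were seen.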

Additional observations from a re-analysis of the deposited data

Results flagged for a closer look

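In each gene, the highest or lowest library of the 5 Rar-deleted ovaries and of the 5 controls was compared with the others by Dixon's test, and 7 of 20 such tests passed its 95% critical value of 0.71, where chance gives about 1 in 20. That rate does not apply as it stands, since the genes were chosen with results of these data known and the 5 Rar-deleted ovaries hold 2 genotypes, so the count is a description. In Rar mutant 3, Ptgs2 was at 209 CPM with the next Rar-deleted library at 4.07 CPM. Pgr was at 133 CPM there, with the next at 2.48 CPM. Rgs2 was at 1928 CPM with the next at 568 CPM, Ptger4 at 11.2 CPM with the next at 5.31 CPM, and Il6 at 10.6 CPM with the next at 2.62 CPM. In Rar mutant 2, Edn2 was at 34.2 CPM with the next at 8.28 CPM. Among the controls, Edn2 in control 4 was at 3.07 CPM with the next at 1.27 CPM. The 5 tests passed in Rar mutant 3 share 1 library and are not independent of each other.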

How the results depend on the processing

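In Rar mutants against controls, 0 of the 10 genes were called, 1 with DESeq2 and 1 within title numbers of 7800 or more (Il6 both times), and 3 (Ptgs2, Pgr and Il6) with DESeq2 without its Cook distance filter, a setting chosen after seeing the data. Leaving out 1 library gave 0 to 3, the 3 being Ptgs2, Pgr and Il6 without Rar mutant 1. DESeq2 without that filter called 1 gene, Ptgs2, in Dmrt1 het Rar mutants against Rar mutants and 1, Ptgs2, in the pooled comparison. Within title numbers of 7800 or more the pooled comparison held no Dmrt1 het Rar mutant. It was therefore the same test as Rar mutants against controls, and its call of Il6 is not a further result. Of 673 recomputed fold changes, 635 kept their direction and, where they had a p-value, their side of the threshold, 10 passed it and 28 turned sign. In Rar mutants against controls, Ednra was 0.12 within the higher title numbers and -0.13 to 0.11 with a library left out, Edn2 -0.65 to 3.84 and Rgs2 -0.17 to 1.55. In Dmrt1 het Rar mutants against controls, Ptger4 was 0.01 without a filter, 0.25 with a title number term, 0.24 with a replicate block and -0.11 to 0.14 with a library left out. Rgs2 there was 0.78 with the title number term, 0.45 with the replicate block and -0.15 to 0.12 with a library left out, Edn2 -0.11 to 2.70 and Il6 -2.39 to 1.65. In Dmrt1 het Rar mutants against Rar mutants, Edn2 was 0.37 with the title number term and -3.32 to 2.53 with a library left out, Pgr -5.07 to 0.19 and Rgs2 -1.57 to 0.16. In the pooled comparison, Hpgd was 0.05 with the replicate block and -0.25 to 0.14 with a library left out, and Rgs2 -0.09 to 0.97. The replicate block, with numbers not known to pair libraries, took Ptgs2 to 4.09 and Pgr to 2.0 in Rar mutants against controls. In Dmrt1 het Rar mutants against Rar mutants it took them to -1.97 and -0.83, and in the pooled comparison to 3.02 and 1.51. It called 0 of the 10 genes in all 4 comparisons, as without it. The cause was not tested. Where a library left out leaves 1 Dmrt1 het Rar mutant, that library is assumed to vary like the other groups, and the higher title numbers hold none of that genotype. Groups of 2 and 3 libraries and control counts of 3 to 18 for Ptgs2 limit every fold change here.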
